A study of Mus musculus with 8 samples.

Results

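The imprinted region between Dlk1 and Dio3 on mouse chromosome 12 holds one of the largest groups of miRNA genes in the genome. The 88 mature miRNAs described here are all names on an Agilent mouse miRNA array that belong to a fixed set of miRNA numbers of this region, from miR-127 to miR-758 and with any letter or arm. They are 88 of the 1023 mouse miRNA names on the array and come from 45 genes, of which 43 are represented by both arms and 2 by one arm. In the RefSeq annotation of GRCm38.p6 all 45 genes lie between Dlk1 and Dio3, among 61 miRNA genes annotated there. The names were chosen by number and not by a threshold on any measured value, though earlier results of these data were known.

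Kidney total RNA from CD-1 mice, which are outbred, was hybridised to 8 one-colour (Cy3) arrays. The control group of 4 arrays had received physiological serum. The other 4 arrays came from mice given tacrolimus, an immunosuppressant that inhibits calcineurin and is known to injure the kidney, in daily doses of 1 mg/kg over 28 days. The study compared these groups to find miRNAs whose levels differ after tacrolimus. Nothing in the labels ties replicates to different animals, so the p-values reflect no more than the scatter among these 8 samples and part of it may be technical.

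miRNAs of this region are known to be transcribed from the maternal chromosome, as parts of long noncoding RNAs that include Meg3, a transcript antisense to Rtl1, Rian and Mirg. Those antisense to Rtl1, such as miR-127 and miR-433, are perfectly complementary to the Rtl1 messenger RNA and can direct its cleavage. The long group from miR-379 to miR-410 includes miR-134, which is known from neurons. The region's miRNAs are known as abundant in embryo, placenta and adult brain, and miR-494 has been described in ischaemic kidney injury.

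The sequences below are those the results turn on. They are the one member that gave signal on every array, the other arm of its hairpin, and one arm each of its nearest neighbours on the same strand, Mir329 and Mir679, which gave none. Mature sequences are from RefSeq (GRCm38.p6) and were found for 84 of the 88 members. They run 5′ to 3′ with the seed, bases 2 to 8, in capitals.
miR-494-3p: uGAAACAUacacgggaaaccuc
miR-494-5p: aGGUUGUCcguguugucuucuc
miR-329-3p: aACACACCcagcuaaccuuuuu
miR-679-5p: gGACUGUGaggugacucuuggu
The hairpin of Mir494, on the plus strand, has 85 bases. Its 5p arm takes bases 17 to 38 and its 3p arm bases 50 to 71, shown in capitals.
Mir494: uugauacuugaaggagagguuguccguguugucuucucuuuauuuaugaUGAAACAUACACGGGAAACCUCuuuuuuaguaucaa

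The array reads each miRNA through short DNA probes complementary to its 3′ end. Both probes for miR-494-3p pair with the mature sequence up to its last base, over bases 9 to 22 and 8 to 22. The longest run that either complement shares with any other mature mouse miRNA in the RefSeq table was 9 bases, in miR-6959-5p. Matches of these short probes to other kinds of RNA in the total RNA were not looked for. For miR-487b-3p, the second member measured repeatedly, the probes have 17 and 18 bases. The probe letters, as deposited, are as follows.
miR-494-3p, 14-base probe: gaggtttcccgtgt
miR-494-3p, 15-base probe: gaggtttcccgtgta
miR-487b-3p, 17-base probe: aagtggatgaccctgta
miR-487b-3p, 18-base probe: aagtggatgaccctgtac

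Nearly all of the 88 members were below detection in these kidneys. The scanner software sets a detection flag for each miRNA on each array from the signals of its probes. Of the 88 members, 3 carried this flag on at least 1 array (3.41%), against 278 of all 1023 mouse names (27.2%). The 3 were miR-494-3p on all 8 arrays, miR-487b-3p on 3 control and 3 tacrolimus arrays, and miR-539-5p on 1 control array. Flags on all 8 arrays were carried by 167 mouse miRNAs (16.3%) and by 1 member.

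Counted per array, 3, 2, 1 and 2 members were flagged on control 1 to 4, and 2, 2, 2 and 1 on tacrolimus 1 to 4. The groups overlapped, and no test was made of a count over the members. In all, 15 of 704 combinations of member and array were flagged (2.13%), compared with 21.6% for all mouse names. The array also carries 57 names of viral miRNAs, which serve here as a second comparison, and 5.48% of their combinations were flagged. They are not a pure background. On each array 3.52% to 4.17% of their spots were well above background, against 0% of negative control spots. Their shares rest on 2 to 5 flagged names per array. On each of the 8 arrays the flagged share was lower among the members (1.14% to 3.41%) than among the viral names (3.51% to 8.77%), and no test was made of this difference.

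**Figure D1:**
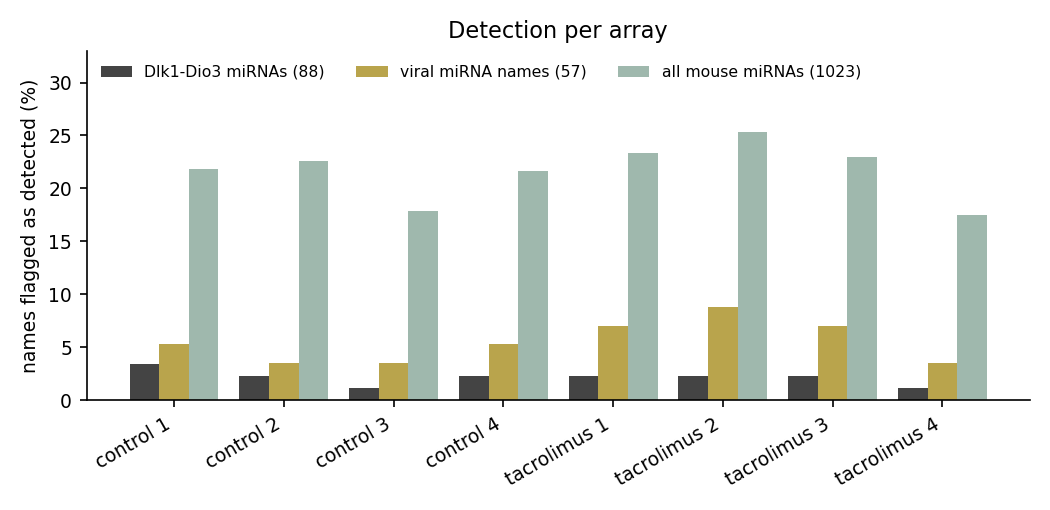
Share of names flagged as detected (%, y axis) on each of the 8 arrays (x axis), for the 88 Dlk1-Dio3 miRNAs, the 57 viral miRNA names and all 1023 mouse miRNAs. The members stay at 1.14% to 3.41%, below the viral names on every array.

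Depth matters for such a statement, and on arrays it is set by background. Control 1, control 3 and tacrolimus 4 were the arrays whose negative controls scattered most (SD 9.82, 8.78 and 20.4, against 3.92 to 5.24 elsewhere). Tacrolimus 4 and control 3 also flagged the fewest mouse miRNAs (179 and 183, against 221 to 259). The lowest signal of a detected mouse probe was 23.4 to 32.7 on the 5 quieter arrays, 50 on control 3, 55.2 on control 1 and 89.0 on tacrolimus 4. Flags can be set below these intensities, as for miR-487b-3p on control 1 and 2, and a member without a flag is not shown to be absent. In RNA of whole tissue, few cells with a miRNA and little of it per cell cannot be told apart.

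By position, the 3 flagged members all lay in the long downstream group, which also holds 68 of the 88 members. So few flagged members cannot show a pattern by position. Counting only the members, the 6 arms of the genes nearest Meg3 (miR-673, miR-337 and miR-665) carried no flag (0 of 6). The 10 arms of the group antisense to Rtl1 (miR-431, miR-433, miR-127, miR-434 and miR-136) carried none (0 of 10), nor did the 4 arms of miR-341 and miR-370, which lie past the start of Rian (0 of 4). In the miR-379 to miR-410 group, 3 of 68 arms were flagged.

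Within that group, Mir494 held the only arm flagged on all 8 arrays. miR-494-3p gave a processed signal of 538 to 2330 over the 8 arrays, while the brightest probe of its other arm, miR-494-5p, ranged from -1.55 to 8.04. Mir329, the miRNA gene just before it, gave 1.49 to 8.69 for miR-329-3p and 2.23 to 6.61 for miR-329-5p. Mir679, the gene just after it, gave -9.78 to 6.88 for miR-679-5p and -8.15 to 1.86 for miR-679-3p. None of these 5 arms was flagged on any array (0 of 8), so that miR-494-3p stood alone among its neighbours. A negative value means that the spots were dimmer than the estimated background. Signals of different probes are not compared in amount, since each probe has its own affinity.

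The 85 members that never carried a flag had background signal. A miRNA's brightest probe is the one highest on average over the 8 arrays, so another probe can be higher on a single array. The median of these members' brightest probes lay between -1.52 and 4.41 on each array. On the 5 quieter arrays the highest was 8.92 to 16.0, always from miR-370-3p. The highest was 43.3 on control 1 (miR-654-3p), 19.5 on control 3 (miR-673-5p) and 51.1 on tacrolimus 4 (miR-412-3p). These 4 members are named because they gave the highest value, seen after the fact. All of these maxima lay under the lowest detected probe of their array. The same 3 arrays also held most of the single bright spots, with 31 of 3011 spots of these members well above background on control 1, 18 of 3107 on control 3 and 29 of 3026 on tacrolimus 4. Those spots belonged to 19, 10 and 17 members. On the other arrays there were 0 to 2 such spots. High values of quiet members thus moved with the arrays of widest background spread, whichever group they belonged to.

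Members best known from brain and placenta followed the same pattern. miR-127-3p, from the group antisense to Rtl1, ranged from -2.41 to 16.0 over the 8 arrays. miR-433-3p, of the same group, ranged from -3.45 to 17.5, and miR-434-3p from -2.17 to 5.56. From the miR-379 to miR-410 group, miR-379-5p ranged from -5.04 to 9.66, miR-134-5p from -8.44 to 11.6, miR-376a-3p from -5.05 to -0.68 and miR-410-3p from -5.67 to 1.94. These 7 were named for what is known of them and are outside the naming rule. None reached the level at which a probe was detected.

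**Figure D2:**
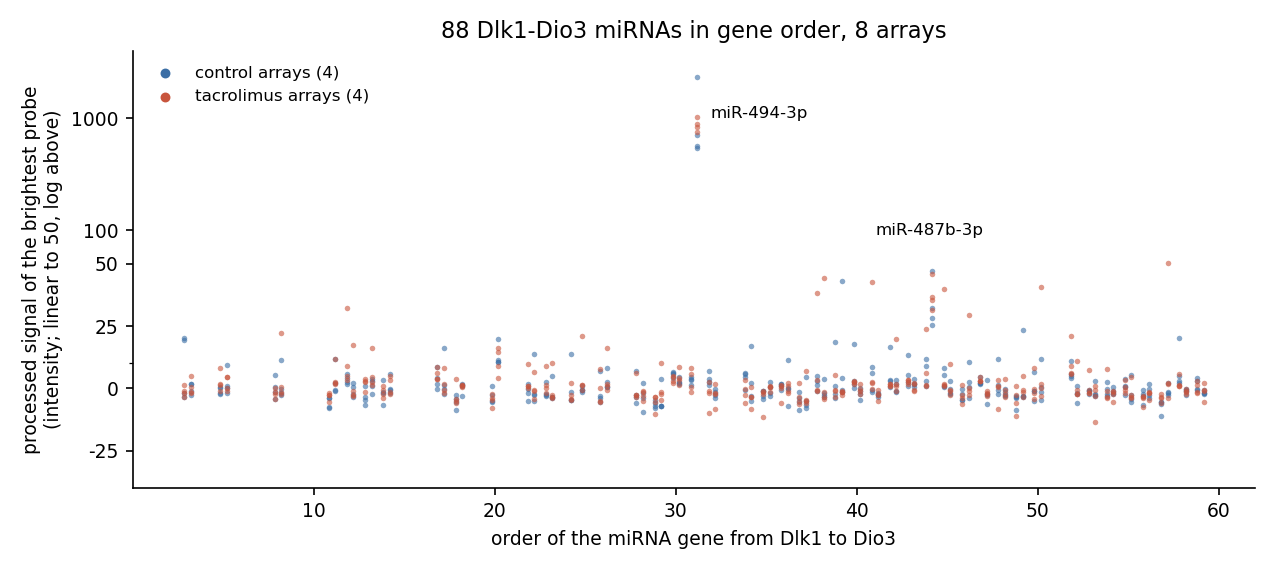
Processed signal (intensity, y axis, linear up to 50 and logarithmic above) of the brightest probe of each of the 88 members, against the order of its gene among the 61 miRNA genes from Dlk1 to Dio3 (x axis). Each point is one array, with 5p arms left and 3p arms right of the gene's position. miR-494-3p stands at 538 to 2330 and miR-487b-3p at 25.6 to 47.1, while the other members scatter around 0, with single values of up to 51.1.

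miR-494-3p was measured with small error within each array. Each of its 2 probes had 20 spots, of which 17 to 20 were kept, all well above background on every array (100%). The coefficient of variation between spots was 3.35% to 6.49% for the 14-base probe and 2.74% to 7.40% for the 15-base probe. For comparison between arrays, each array was divided by its own 75th percentile, taken over 252 probes that every array detected, so that a log2 value of 0 is that percentile.

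On this scale the 14-base probe of miR-494-3p, its brighter one, stood at -0.12, -1.44, -1.34 and -1.69 in control 1 to 4. In tacrolimus 1 to 4 it stood at -1.58, -1.46, -0.88 and -1.10. Control 1 was the highest of all arrays, and the other control arrays overlapped the tacrolimus arrays. The means were -1.15 ± 0.70 in control and -1.25 ± 0.32 in tacrolimus kidneys (SD, n = 4 arrays each). The 15-base probe ordered the extremes alike, with control 1 highest at -1.12 and control 4 lowest at -2.89.

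The difference for miR-494-3p, tacrolimus minus control, was -0.11 on the log2 scale (SE 0.317, 95% interval -0.82 to 0.61), or 0.93-fold. It stayed above the threshold (adjusted p = 0.887, limma with Benjamini-Hochberg adjustment over 194 miRNAs). Its direction rested on single arrays. Without control 1 it was 0.24 (SE 0.172, adjusted p = 0.469, limma), and without tacrolimus 1 it was 0.0015. Without control 1 and tacrolimus 4 it was 0.043, an alternative chosen after seeing the data, and without scaling it was 0.049.

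miR-487b-3p lay at the edge of detection. Its 18-base probe had processed signals of 47.1, 25.6, 28.3 and 32.4 in control 1 to 4, and of 35.3, 36.6, 31.4 and 46.1 in tacrolimus 1 to 4. The highest values came from control 1 and tacrolimus 4, 2 of the arrays with the widest background spread, and neither had even 50% of the probe's spots well above background (23.5% and 0%). At least that share was reached on control 4 (57.9%) and on tacrolimus 1, 2 and 3 (73.7%, 90% and 94.1%). The 17-base probe was dimmer, with 0% to 11.1% of spots well above background. The other arm, miR-487b-5p, ranged from 0.94 to 23.9 and was flagged on 0 arrays.

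Scaled, miR-487b-3p stood at -5.78 ± 0.13 in control and -5.81 ± 0.19 in tacrolimus kidneys (SD, n = 4 arrays each). Control 2 and tacrolimus 1 were at the floor of -5.96, and tacrolimus 2 was just above it. The floor is a single value for all arrays and did not separate detected from undetected signal here. Tacrolimus 1 was floored with 73.7% of the probe's spots well above background. The highest scaled values, in tacrolimus 4 (-5.58) and control 3 (-5.66), came from arrays with 0% of such spots. The groups overlapped. The difference was -0.025 (SE 0.106, 95% interval -0.26 to 0.21) and was not past the threshold (limma, adjusted p = 0.904). Values at the floor have no order, so the true size of a difference could be understated, and the sign changed with the scaling and with the array left out.

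miR-539-5p, whose gene follows Mir487b directly, was flagged on control 1 alone, with a total gene signal of 8.21. The flag there went with an uneven probe. Of 10 spots of its 18-base probe on control 1, 4 were well above background, the brightest at 152, while the median spot was at 2.88. Its other 3 probes had 0 spots above background on that array. The next spots of this miRNA above background were 2 spots of one probe and 1 of another on tacrolimus 4, where no flag was set (0). miR-539-5p was therefore not tested. Its other arm, miR-539-3p, ranged from -2.64 to 9.62 and was flagged on 0 arrays.

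**Figure D3:**
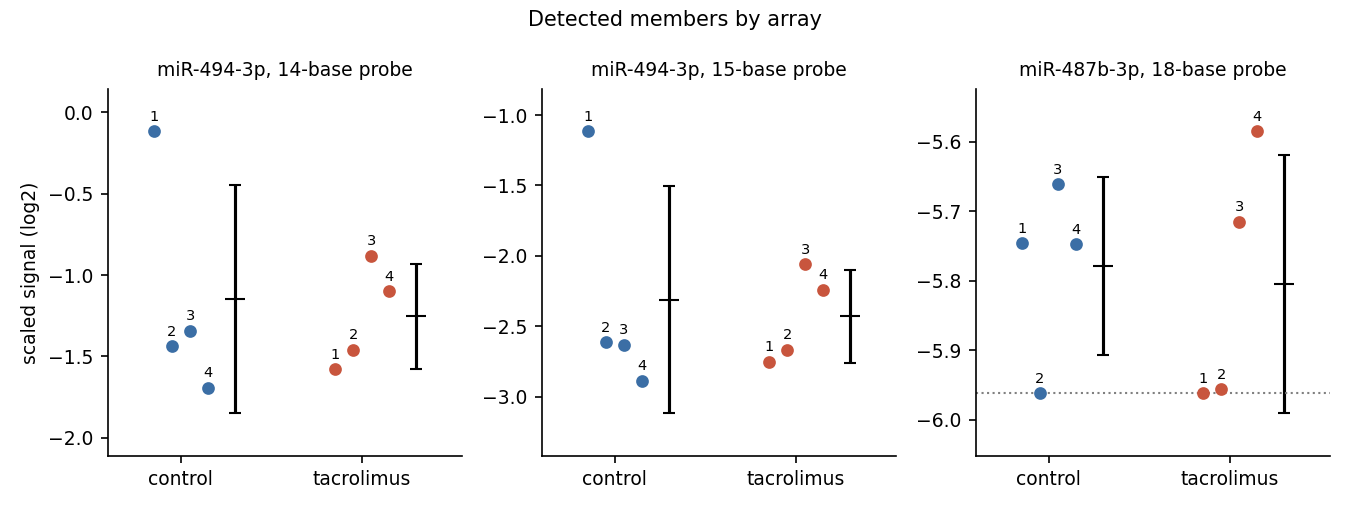
Scaled signal (log2, y axis) of miR-494-3p through its 14-base and 15-base probes and of miR-487b-3p through its 18-base probe, by group (x axis). Points are arrays with their replicate number, bars are the mean and SD of 4 arrays, and the dotted line is the floor of -5.96. Control 1 is the highest array for both probes of miR-494-3p, at -0.12 and -1.12, and the groups overlap in all 3 panels.

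Across the cluster no response to tacrolimus was found. To be tested, a miRNA needed its brightest probe detected on 4 or more arrays, which 194 of 1023 mouse miRNAs and 2 of the 88 members reached. Of the 2, 0 passed the threshold in limma, and 0 had an unadjusted p under 0.05. Over all 194 tested miRNAs 6 passed (3.09%), all of them higher after tacrolimus, and 30 had an unadjusted p under 0.05 (15.5%). The count of 6 was not stable. It was 0 under 16 of 24 alternatives in limma, among them the replicate block and leaving out control 1, control 2, tacrolimus 1 or tacrolimus 4, and 1 to 8 under the others. The groups did not overlap for 20 of the 194 (10.3%) and for 0 of the 2 members. The median difference was 0.039 over all tested miRNAs. With 2 members tested, these counts say little about the cluster, and the other 86 have no test. Each treatment occupied its own row of the slide, and the effects of row and treatment cannot be told apart.

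The widest departure of miR-494-3p was on a single control array. In control 1 it exceeded the mean of the other 3 control arrays by 1.37 on the log2 scale, or 2.59-fold, the largest such excess among the 194 tested miRNAs. The 15-base probe, which contains the sequence of the 14-base probe, gave 1.60, or 3.02-fold. Before scaling, the 14-base probe was 3.86 times as bright on control 1 as the mean of control 2 to 4. Unscaled, every kept spot of the 14-base probe on control 1 was brighter than any on another array. The dimmest on control 1 had a signal of 2087, and the brightest on any other array had 1136.

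Only 2 tested miRNAs exceeded the other controls by more than 1 in control 1, miR-494-3p and miR-342-3p (1.17). The median excess over all 194 was 0.068, and miR-487b-3p was at 0.045. Next in order stood miR-144-3p and miR-451a, miRNAs of red blood cells, at 0.90 each. The 8 largest were completed by miR-2861 (0.83), miR-155-5p (0.81), miR-142a-5p (0.75) and miR-3102-5p (0.74), of which miR-155-5p and miR-142a-5p are known from leukocytes. These were chosen after their values were seen. Over whole lists, the summed signal of 3 erythrocyte miRNAs, not scaled between arrays, ranged from 2139 to 9084 in control and from 1875 to 3438 in tacrolimus arrays. That of 4 leukocyte miRNAs ranged from 217 to 844 and from 538 to 1075. The unscaled sum of 4 kidney tubule miRNAs also varied, from 3366 to 7944 in control and from 5908 to 7792 in tacrolimus arrays. The part of array brightness in these ranges was not tested. The median difference, tacrolimus minus control, was -0.67 over the erythrocyte and 0.58 over the leukocyte miRNAs, and limma called 0 of these 7 after adjustment (6 had an unadjusted p under 0.05). The part of blood cells in the miR-494-3p values was not tested.

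**Figure D4:**
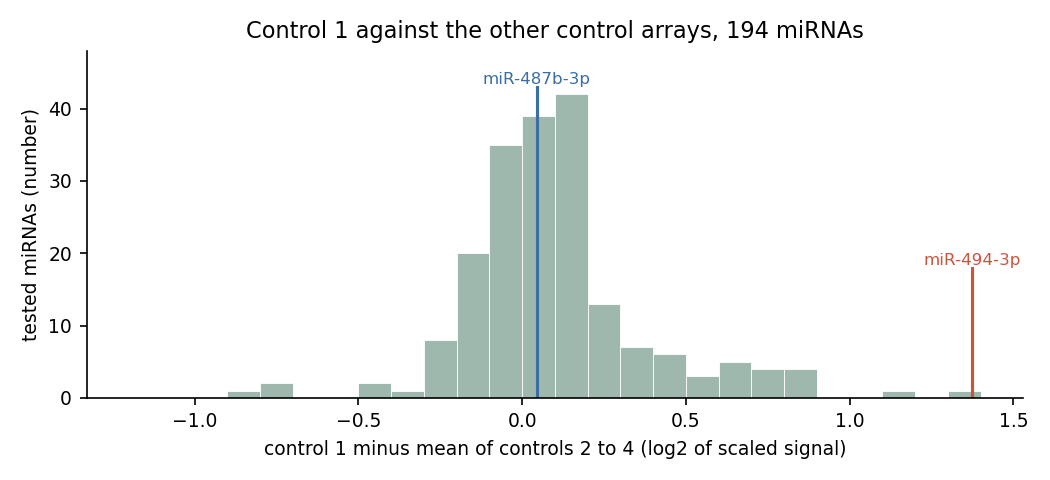
Number of tested miRNAs (y axis) by the excess of control 1 over the mean of control 2 to 4 (x axis, log2 of scaled signal, bins of 0.1), for the 194 tested miRNAs. The lines mark miR-494-3p at 1.37, the largest value, and miR-487b-3p at 0.045, near the median of 0.068.

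The array also carries miRNAs of the same region that the chosen numbers leave out. Of 23 such names, 4 were flagged on at least 1 array. This compares with 3 of the 88 members (3.41%) and 278 of all 1023 mouse names (27.2%), so the low share of the members is not shown for these names. Of the 23, 1 was tested. That one, miR-1906, was flagged on all 8 arrays and differed by -0.16 (SE 0.097, adjusted p = 0.475, limma). Its gene in the region has a second copy on the X chromosome, so its signal cannot be assigned to this region. miR-3072-5p, whose gene follows Mir410, was flagged on 3 control and 3 tacrolimus arrays. miR-3070-2-3p was flagged on 2 tacrolimus arrays and miR-770-5p on 1 control array.

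miRNAs of other imprinted regions gave few flags. Of 10 arms of miR-675 (from H19), miR-483 (from Igf2), miR-335 (from Mest), miR-296 and miR-298 (from the Gnas region), 1 was flagged at all. This was miR-335-5p, on 2 control and 3 tacrolimus arrays, and none reached the test (0 of 10). Of all 1023 mouse names, 27.2% were flagged on at least 1 array.

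The markers of kidney were present. All 4 kidney tubule miRNAs, such as miR-192-5p and miR-204-5p, and both endothelial ones were flagged on all 8 arrays, and 0 of these 6 passed the test in limma (1 at an unadjusted p under 0.05, miR-204-5p). Of 4 neuronal miRNAs the defining miR-124-3p was flagged on 0 arrays, as was miR-129-5p. miR-9-5p was flagged on 1 control and 1 tacrolimus array and miR-9-3p on 2 and 3. Of 5 striated muscle miRNAs, 2 were flagged on some arrays and none on all (0), and the liver's miR-122-5p on 1 control and 2 tacrolimus arrays. Of 2 miRNAs known from endocrine cells, miR-375-3p was flagged on 0 arrays and miR-7a-5p on 8.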

How the data were processed

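The authors deposited one scanner output per array. Per the file headers, Feature Extraction 10.7.3.1 wrote it and it holds linear spot intensities. The processed intensity has background and spatial trend subtracted per the file headers, and no array is scaled to another. The authors' deposited value table equalled the total gene signal in 100% of cells (0.1 where undetected), and limma is named in the submitters' processing notes. Other values of the files used here were 0 or 1 flags.

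With R 4.3.3 and limma 3.58.1, spots marked as outliers were left out and the 20 or fewer remaining spots of a probe averaged. A probe counted as detected if at least 0.5 of its spots were well above background. Each array was divided by its 75th percentile over 252 probes that every array detected, floored at -5.96 (log2) and tested with lmFit and eBayes, two-sided, at a threshold of 0.05. The brightest probe, by its mean over all 8 arrays, stood for a miRNA. Sequences were joined by name with Python 3.11.15. The steps were tested on simulated data. The number of arrays limits the precision. No member spot was saturated (0), and arrays correlated at 0.987 to 0.997.

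Members and lists were chosen with earlier results of these data known. By the naming rule, every tested or flagged member was named, with its other arm, and list members by count. No coordinates are given, because the headers name an older assembly than RefSeq's GRCm38.p6.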

Additional observations from a re-analysis of the deposited data

Results flagged for a closer look

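Tacrolimus 4 stood apart from the other tacrolimus arrays in the number of members detected, with 1 against 2 on each of the others. It was 1 of 6 groups of 4 values examined. The gap is 1 flag, that of miR-487b-3p, and control 3 also had 1 member flagged. For such small tied counts no rate expected by chance is given. Tacrolimus 4 had the lowest number of flagged mouse miRNAs (179), and its negative controls scattered most (SD 20.4), whose part in the count was not tested.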

How the results depend on the processing

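The count of members past the threshold was 0 under every alternative run. These were other scalings, normexp background, other filters, the mean of probes, a floor 2 times as high, the total gene signal, the authors' table, trend with robust estimation, all spots kept, the replicate block and each array left out. For miR-494-3p, 20 of 24 alternatives kept the direction (adjusted p 0.469 to 0.999, limma). Part of these could not turn it. The other filters, the higher floor, trend with robust estimation and the replicate block left the difference at -0.11. The total gene signal and the authors' table are the same values. The difference turned to 0.049 without scaling, where all tested miRNAs had a median of 0.19, and to 0.043 without control 1 and tacrolimus 4. Leaving out one array gave -0.29 to 0.24. For miR-487b-3p, 11 of 19 kept the direction (adjusted p 0.528 to 1, limma), and with the higher floor all arrays were at the floor and the difference was 0. No filter, detection on at least 1 array, trend with robust estimation and the block left it at -0.025 and could not turn it. The difference turned to 0.014 with the 75th percentile of all probes, 0.086 without scaling, 0.056 with quantile normalization, and 0.14 with the total gene signal or the authors' table. It was -0.15 without control 1 and tacrolimus 4. Leaving out one array gave -0.094 to 0.022 in the 4 cases where it was still tested. The cause of these turns was not tested. With all spots of a probe required above background, the mean number of detected members was 1 in both groups, against 2 and 1.75. With at least 0.5 of a probe's spots required it was 1.25 in control and 1.75 in tacrolimus arrays, which turns the order of the groups. Leaving out one array gave 1.67 to 2.33 and 1.67 to 2. With a replicate block the 2 miRNAs differed by -0.11 and -0.025, as without it, because a block in this balanced design cannot move a difference. Deviations of same-numbered arrays correlated at 0.0946 to 0.14 over the 194 miRNAs, and 1 of 4 control arrays correlated best with its own number. With 4 arrays per group, these values cannot decide whether same-numbered arrays share more than a number. Under the block 0 of the 194 were called instead of 6 in limma. Same-number differences for miR-494-3p were -1.46, -0.020, 0.46 and 0.59.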

Other observations

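Of the 84 members with a sequence, 78 had a seed that no other member shares. The 3 shared seeds were those of miR-379-3p with miR-411-3p, miR-410-5p with miR-494-5p, and miR-376b-5p with miR-376c-5p, all of them undetected (0 arrays each). The seed of miR-494-3p, GAAACAU, stood in no other mouse miRNA on the array (0). Among 9 seeds that a member shares with a mouse miRNA outside the set, 1 belonged to a detected one. miR-362-3p was flagged on all 8 arrays and carries the seed of the undetected miR-329-3p, shown in capitals.
miR-362-3p: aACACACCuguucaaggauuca
miR-329-3p: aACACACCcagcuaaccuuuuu
miR-362-3p, whose gene lies outside the region, differed by 0.12 (SE 0.073) between the groups and was not past the threshold (limma, adjusted p = 0.467).

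Probe design was similar for members and other miRNAs. The 231 member probes had a median length of 16 bases and a median GC content of 52.6%, against 16 bases and 50% for the 2414 other mouse probes. The 347 probes of miRNAs flagged on all arrays had a median of 18 bases and 47.6% GC. Of 221 member probes whose miRNA has a sequence in the table, 221 were exact complements of it, and 216 of them reached its 3′ end.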
